A study of Mus musculus with 17 samples.

Results

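MHC class II presentation was followed through 7 genes in thioglycollate-elicited peritoneal macrophages (PMs) exposed to the HIV protein Tat. The genes were chosen for their part in class II presentation: H2-Aa, H2-Ab1 and H2-Eb1, which encode chains of the class II molecules, Cd74, the invariant chain, H2-DMa and H2-DMb1, the chains of the peptide editor H2-DM, and Ciita, the transactivator of the class II genes. They are 7 of the 21683 rows of the expression table. RNA-Seq was performed in 17 libraries from 3 groups. F/F PBS (n = 6 libraries) were PMs of IKKβF/F mice, whose Ikbkb alleles are flanked by loxP sites and intact, given PBS instead of Tat. F/F Tat (n = 6) were PMs of the same genotype given 100 nM Tat for 12 h. ΔMye Tat (n = 5) were PMs of IKKβΔMye mice, in which Cre driven from the lysozyme M (Lyz2) promoter deletes Ikbkb in myeloid cells, given the same Tat treatment. All mice were males of 8 weeks. All PMs were elicited with 1 mL of 3% thioglycollate and attached for 4 h before treatment. The labels place their collection 3 days after thioglycollate, whereas the methods give a day more. The IKKβΔMye mice also carry 1 Lyz2 allele interrupted by Cre, and the Tat was a recombinant protein made in bacteria from which endotoxin had been removed. PMs of IKKβΔMye mice given PBS were not analysed here, so what separates the genotypes under Tat and what separates them without Tat cannot be told apart. The labels do not say that the libraries of a group came from separate animals, so p-values measure the spread between these libraries only.

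Class II molecules are αβ dimers that carry peptides from endosomes to the surface of antigen-presenting cells for recognition by CD4+ T cells. The invariant chain holds the peptide groove closed until endosomal proteases, cathepsin S among them, cut it down to a remnant, and H2-DM then exchanges that remnant for antigenic peptide. CIITA binds no DNA by itself but is recruited by factors that sit on the X and Y boxes of class II promoters, and in macrophages it is typically induced by interferon-γ, with IRF1 among the factors that act on its promoter. IKKβ is the kinase that activates canonical NF-κB.

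The promoters are shown because CIITA acts there. RefSeq promoter windows (build GRCm38.p6) were held for 4 of the 7 members: H2-Aa, H2-Eb1, H2-DMa and H2-DMb1. In the lines that follow, the 150 bases before the start site are written 5′ to 3′ on the gene's strand, and capitals mark the X-box core AACNNATG and the Y-box core GATTGG or its reverse complement CCAATC. The H2-Eb1 stretch is chr17:34305717-34305866 (plus strand), the H2-Aa stretch chr17:34287824-34287973 (minus strand) and the H2-DMa stretch chr17:34122682-34122831 (plus strand).
H2-Eb1: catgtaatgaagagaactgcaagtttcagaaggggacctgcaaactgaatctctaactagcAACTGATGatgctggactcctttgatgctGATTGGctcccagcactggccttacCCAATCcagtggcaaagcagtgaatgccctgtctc
H2-Aa: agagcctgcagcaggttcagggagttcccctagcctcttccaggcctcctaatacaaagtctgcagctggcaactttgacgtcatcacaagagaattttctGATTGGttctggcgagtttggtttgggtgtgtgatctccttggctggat
H2-DMa: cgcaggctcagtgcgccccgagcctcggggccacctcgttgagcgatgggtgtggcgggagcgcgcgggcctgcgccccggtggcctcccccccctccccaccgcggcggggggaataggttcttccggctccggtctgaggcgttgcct
The letters were chosen after the sequences had been read and were searched on both strands in the 250 bases before each start site. In H2-Eb1 the X core began 89 bases and the Y core 60 bases before the start site, 29 bases apart, and in H2-DMb1 they began 92 and 62 bases before it, 30 bases apart. H2-Aa held the Y core, 49 bases before its start site, and no match to the X letters. The X letters are a narrow spelling, so a window without a match can still hold an X box. The H2-DMa window shown held neither core, and the window of another H2-DMa start site (34125518) held the Y core at position -199 from it and no match to the X letters. Both H2-DMa start sites (34122832 and 34125518) lie inside the GENCODE M21 span of the gene, which begins at 34119541. The H2-DMb1 start site (34153191) also lies inside the span of its gene, which begins at 34153072. Both H2-DMb1 cores lie inside that span, and the H2-DMb1 sequence is not printed for this reason. Which start site these cells use was not tested, so these windows need not hold the promoter in use. Of 32851 promoter windows, 7.71% held AACNNATG, 14.6% held GATTGG, 1.13% held both and 0.0791% (26 windows) held an X core followed on the same strand by a Y core that began 20 to 40 bases later. Among the class II genes outside the 7 members, H2-DMb2, H2-Ob and H2-Eb2 held this arrangement too, with 30, 27 and 29 bases between the starts. These matches describe letters in the windows and were not measured as bound sites.

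The positions are those of GENCODE M21 on GRCm38, and that of Cd74 is not given here. H2-DMa spans 34119541 to 34139101, H2-DMb1 34153072 to 34160230, H2-Ab1 34257689 to 34269419 and H2-Eb1 34305867 to 34316674 on the plus strand of chromosome 17, and H2-Aa spans 34282744 to 34287823 on its minus strand. Ciita spans 10480059 to 10528418 on the plus strand of chromosome 16. The values are over whole genes. H2-DMb1 shared 31.4% of its 31-base sequences with H2-DMb2, so its level can include reads of that copy. For the other 6 members the shared part was 1.41% or less.

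Levels are given as TPM (length-normalized transcript abundance within a library), which the authors computed with Salmon and which are set per transcript length, so that genes can be compared. Tests were made with limma on log2(TPM + 0.1) for the 10451 genes that reached 1 TPM in 5 or more libraries, and all 7 members were among them. A gene is said to have risen or fallen where its Benjamini-Hochberg adjusted p over all tested genes was under 0.01, and it is called changed by over 3-fold where its fold change also passed 3. The median log2 fold change of all tested genes was -0.65 for Tat against PBS in F/F cells, 0.22 between the genotypes under Tat (ΔMye minus F/F) and -0.43 from F/F PBS to ΔMye Tat. Median-ratio scaling brings these medians to -0.03, 0.01 and -0.01, and results so scaled are therefore given beside those from TPM as deposited. Ikbkb was 26.8 ± 1.99 TPM (SD, n = 6) in F/F PBS, 23.2 ± 1.44 (n = 6) in F/F Tat and 16.4 ± 2.59 (n = 5) in ΔMye Tat, a log2 difference of -0.51 between the latter groups (limma, adjusted p = 4.51e-05). Cre removes only part of Ikbkb, so whole-gene TPM is a weak check of the genotype. The 8 macrophage markers, each tested, summed to 25796 to 26807 TPM in F/F PBS, 10310 to 10890 in F/F Tat and 8019 to 8344 in ΔMye Tat. As deposited, 3 of them rose and 5 fell with Tat, beside 17% and 67.6% of all tested genes. From F/F Tat to ΔMye Tat 4 of the markers rose and 2 fell, beside 38.8% and 8.87%. Lyz2, which made up most of the sum, had means of 22382, 6993 and 4333 TPM, and Csf1r, the receptor for macrophage colony-stimulating factor, 381, 64.0 and 104 TPM, in the same order of groups. Lyz2 is also the gene that Cre interrupts on 1 allele in the IKKβΔMye mice. The sum in ΔMye Tat is therefore no measure of macrophage content. The part of these markers in the members' differences was not tested.

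The 7 members were higher in ΔMye Tat than in F/F Tat without exception, and 6 of them were also above F/F PBS. Their summed TPM lay between 1905 and 2137 in F/F PBS, between 1721 and 1820 in F/F Tat and between 4051 and 4448 in ΔMye Tat, which is 0.214% to 0.239%, 0.191% to 0.202% and 0.451% to 0.494% of the listed TPM. Cd74 made up most of each sum. In bulk RNA, a change in the number of cells that express a gene and a change in RNA per cell cannot be told apart.

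**Figure D1:**
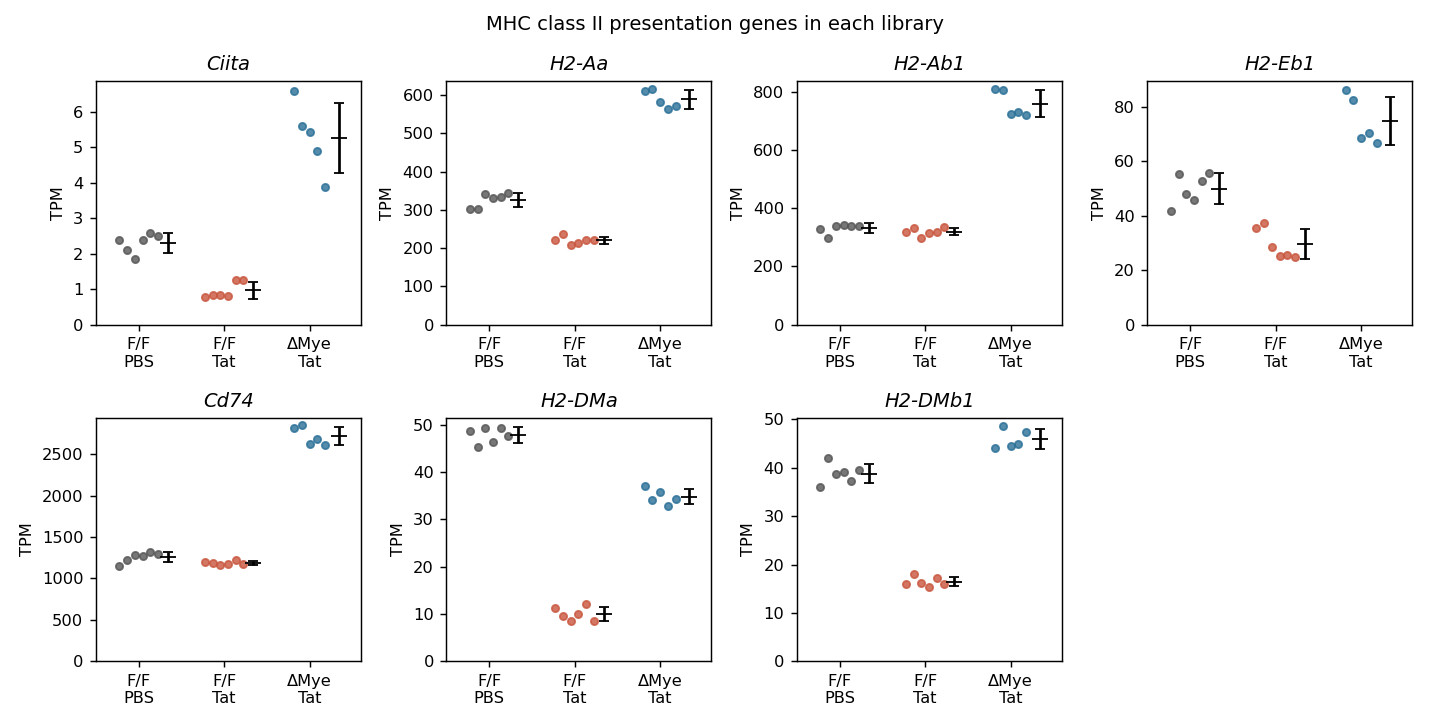
TPM of each of the 7 genes (vertical axes from 0, 1 panel a gene) in the 17 libraries, with a dot for each library and a bar for the mean ± SD of F/F PBS (n = 6), F/F Tat (n = 6) and ΔMye Tat (n = 5). The ΔMye Tat dots lie above all F/F Tat dots in the 7 panels and above all F/F PBS dots in 6, the exception being H2-DMa, at 32.8 to 37.0 TPM against 45.3 to 49.3 in F/F PBS.

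Ciita, the transactivator, had the lowest level of the members in each group. Its lowest, median and highest TPM were 1.84, 2.40 and 2.58 in F/F PBS and 0.773, 0.849 and 1.26 in F/F Tat. The ΔMye Tat libraries had 6.58, 5.59, 5.43, 4.91 and 3.88 TPM. No library of any group overlapped another group. With Tat, Ciita fell by 1.19 on the log2 scale (SE 0.15, adjusted p = 3.37e-07, limma) and by 0.60 after scaling, whereas under quantile normalization it differed by -0.12 and did not pass (adjusted p = 0.442). From F/F Tat to ΔMye Tat it rose by 2.34 (SE 0.16, adjusted p = 3.24e-10), the largest log2 difference among the members, and lay at percentile 99.9 of all tested genes. Against F/F PBS, Ciita in ΔMye Tat was higher by 1.15 on the log2 scale (adjusted p = 1.36e-06). Within F/F Tat, libraries 11 and 12 had 1.25 and 1.26 TPM and the other 4 had 0.773 to 0.850.

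The chain genes H2-Ab1 and H2-Aa encode the β and α chains of I-A. H2-Ab1 was 298, 339 and 344 TPM (lowest, median, highest) in F/F PBS and 299, 319 and 334 TPM in F/F Tat, and these groups overlapped throughout. The ΔMye Tat libraries had 811, 807, 724, 730 and 720 TPM, all above the highest library of the other groups. H2-Ab1 differed by -0.05 on the log2 scale with Tat as deposited (95% confidence interval -0.14 to 0.03, adjusted p = 0.238, limma), but by 0.58 after scaling (adjusted p = 4.06e-10), so that its direction depended on the scaling. From F/F Tat to ΔMye Tat it rose by 1.25 (SE 0.04, adjusted p = 2.59e-14). The F/F PBS library 2 had the lowest H2-Ab1, 298 TPM, with the next at 327.

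H2-Aa was 301, 333 and 344 TPM in F/F PBS and 208, 221 and 236 TPM in F/F Tat (lowest, median, highest), without overlap. In ΔMye Tat the 5 libraries had 612, 617, 583, 563 and 571 TPM. H2-Aa fell with Tat by 0.56 on the log2 scale as deposited (SE 0.04, adjusted p = 5.85e-11) but differed by 0.07 after scaling (adjusted p = 0.141), so this direction also depended on the scaling. It rose by 1.42 from F/F Tat to ΔMye Tat (SE 0.04, adjusted p = 3.01e-15). The α and β chain genes thus stood at nearly equal TPM in F/F PBS, with a mean ratio of 0.983, and with Tat at 0.690 in F/F cells and 0.777 in ΔMye cells.

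H2-Eb1 encodes the β chain of I-E, whose α chain gene is defective in the H2-b haplotype of C57BL/6 mice. It was lower than the I-A genes in each group. Its lowest, median and highest TPM were 41.6, 50.3 and 55.9 in F/F PBS and 24.8, 27.1 and 37.4 in F/F Tat, and the ΔMye Tat libraries had 86.4, 82.4, 68.4, 70.5 and 66.7 TPM. The groups did not overlap. H2-Eb1 fell by 0.77 with Tat (SE 0.11, adjusted p = 1.45e-06), but after scaling the difference was -0.14 (adjusted p = 0.194). It rose by 1.35 from F/F Tat to ΔMye Tat (SE 0.11, adjusted p = 6.71e-09). Libraries 7 and 8 of F/F Tat, at 35.4 and 37.4 TPM, were above the other 4, at 24.8 to 28.7, and were not the F/F Tat libraries in which Ciita was highest.

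Cd74, the invariant chain, was the most abundant member. It was 1147, 1276 and 1321 TPM in F/F PBS and 1159, 1183 and 1225 in F/F Tat (lowest, median, highest), and the ΔMye Tat libraries had 2814, 2853, 2618, 2688 and 2607 TPM. F/F PBS and F/F Tat overlapped and ΔMye Tat lay above both. With Tat, Cd74 differed by -0.08 on the log2 scale as deposited (adjusted p = 0.0235) and by 0.55 after scaling (adjusted p = 1.36e-11), so its direction depended on the scaling. It passed the test as lower as deposited when F/F PBS library 1, the lowest of that group, was left out (-0.11, adjusted p = 0.00158). From F/F Tat to ΔMye Tat it rose by 1.19 (SE 0.03, adjusted p = 2.05e-15).

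H2-DMa and H2-DMb1, the chains of the peptide editor, fell with Tat both as deposited and after scaling. H2-DMa was 45.3, 48.2 and 49.3 TPM in F/F PBS and 8.53, 9.77 and 12.1 in F/F Tat (lowest, median, highest), and the ΔMye Tat libraries had 37.0, 34.2, 35.7, 32.8 and 34.4 TPM. It was the only member in which ΔMye Tat lay between the F/F groups, without overlap with either. H2-DMa fell with Tat by 2.25 on the log2 scale (SE 0.07, adjusted p = 2.25e-16) and by 1.62 after scaling, and rose by 1.80 from F/F Tat to ΔMye Tat (SE 0.08, adjusted p = 4.49e-13). ΔMye Tat remained below F/F PBS by -0.46 as deposited (adjusted p = 1.70e-05), whereas after scaling the difference was -0.04 (adjusted p = 0.670).

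H2-DMb1 was 36.1, 38.9 and 42.0 TPM in F/F PBS and 15.3, 16.2 and 17.9 in F/F Tat (lowest, median, highest). The ΔMye Tat libraries had 44.0, 48.6, 44.5, 44.9 and 47.4 TPM, above both other groups. H2-DMb1 fell with Tat by 1.23 on the log2 scale (SE 0.05, adjusted p = 3.38e-15) and by 0.60 after scaling, and rose by 1.48 from F/F Tat to ΔMye Tat (SE 0.05, adjusted p = 1.57e-14). Since H2-DMb2 shares much of its sequence, these values carry that uncertainty. H2-DMb2 itself was listed at 1.18 to 4.59 TPM over the F/F libraries and 1.42 to 1.76 TPM in ΔMye Tat. The listed H2-DMb2 values carry the same uncertainty, so they do not bound it.

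Counted over the 7 members, 5 fell and 0 rose with Tat in F/F cells as deposited in limma (0 also at an unadjusted p under 0.05), where 67.6% of all tested genes fell and 17% rose. Their libraries did not overlap in the same 5, lower, and in 0, higher, beside 62.4% and 15.3%. After scaling 3 fell (H2-DMa, H2-DMb1 and Ciita) and 2 rose (H2-Ab1 and Cd74), where 38.1% of all tested genes fell and 37.1% rose. Only H2-DMa passed 3-fold, lower with Tat, as did 19.4% of all tested genes as deposited, and again after scaling, beside 9.76%. The members' median log2 fold change was -0.77, beside -0.65 for all tested genes, so the members' median lay close to that of the background, and single members ran from percentile 9.04 (H2-DMa) to 75.5 (H2-Ab1).

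Between ΔMye Tat and F/F Tat, 7 of 7 members rose, beside 38.8% of all tested genes (8.87% fell), and the same 7 rose after scaling, beside 16.4% (18.8% fell). Their libraries did not overlap in 7 of 7, beside 28.6%. Their median log2 fold change was 1.42 as deposited and 1.21 after scaling, beside 0.22 and 0.01 for all tested genes, and the members lay at percentiles 98.2 (Cd74) to 99.9 (Ciita). Ciita and H2-DMa passed 3-fold, where 0.440% of all tested genes did so upwards, and both did again after scaling, beside 0.258%. H2-DMa was then just past that threshold, with a log2 difference of 1.59, and under quantile normalization, with 1.53, it was not, which left Ciita alone. The 7 differences thus lay above the median shift between the groups under both scalings.

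Between ΔMye Tat and F/F PBS, 6 of 7 members rose, beside 17.5% of all tested genes, and 1, H2-DMa, fell, beside 58.8%. After scaling the same 6 rose and none fell in limma, beside 34% and 33.7%. The log2 differences of those that rose were 1.19 (H2-Ab1), 1.15 (Ciita), 1.11 (Cd74), 0.86 (H2-Aa), 0.59 (H2-Eb1) and 0.24 (H2-DMb1), and none passed 3-fold as deposited, beside 4.38% of all tested genes. After scaling H2-Ab1 did (1.61), beside 6.41%. The libraries did not overlap in the 6 that rose, beside 14.8%, nor in H2-DMa, beside 52.8% for lower. These 6 lay above every F/F PBS and every F/F Tat library, as did 3.09% of all tested genes. The 3 comparisons share groups: each of the 3 groups enters 2 of them, so they are not independent of each other.

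**Figure D2:**
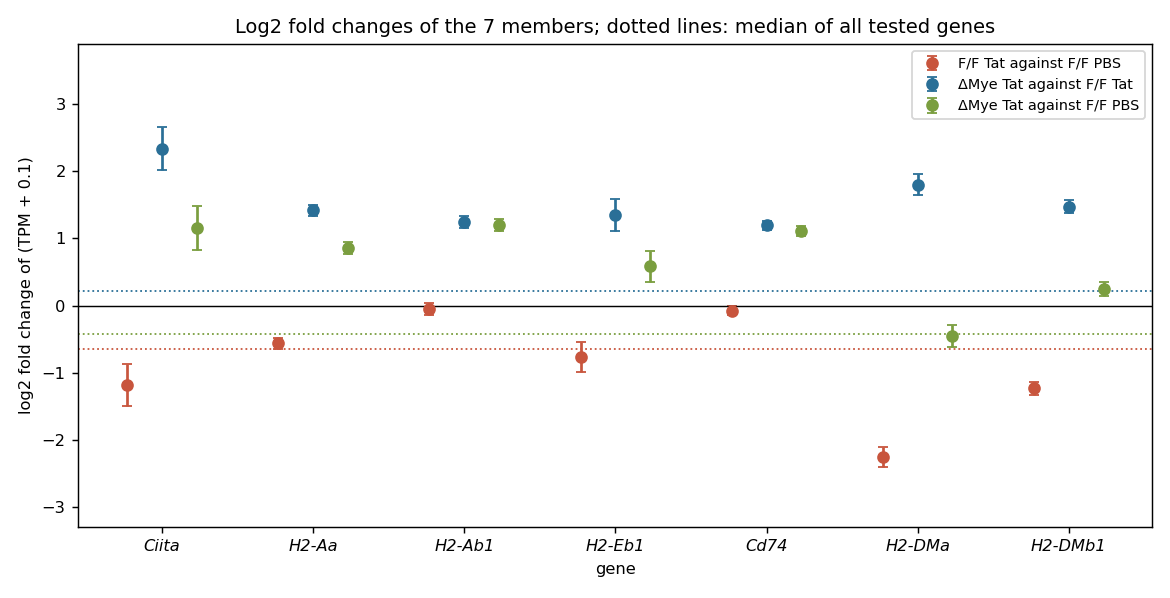
Log2 fold changes of (TPM + 0.1) with 95% confidence intervals for the 7 members (horizontal axis) in the 3 comparisons (colours), from TPM as deposited. Dotted lines are the medians of all tested genes, at -0.65, 0.22 and -0.43; the values for ΔMye Tat against F/F Tat lie between 1.19 and 2.34, and those of H2-Aa, H2-Ab1 and Cd74 for Tat against PBS change sign after median-ratio scaling.

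The order of the levels was Cd74, H2-Ab1, H2-Aa, H2-Eb1, then the H2-DM genes and Ciita in each group. In F/F PBS the neighbours H2-Ab1 and H2-Aa (means 331 and 326 TPM) and the neighbours H2-Eb1 and H2-DMa (49.9 and 47.7 TPM) overlapped in their libraries. H2-DMa stood above H2-DMb1 in F/F PBS (47.7 ± 1.67 against 38.8 ± 2.03 TPM, SD, n = 6), whereas it stood below with Tat, both in F/F cells (10.01 ± 1.44 against 16.4 ± 0.940, n = 6) and in ΔMye cells (34.8 ± 1.59 against 45.9 ± 2.03, n = 5).

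To ask whether the members changed by unequal folds, ratios of 2 genes within a library were compared, since these do not depend on the scaling between libraries. There were 6 pairs in 2 comparisons, hence 12 two-sided exact permutation tests with p-values adjusted over the 12, and the smallest p that the designs allow is 0.00216 for 6 against 6 libraries and 0.00433 for 6 against 5. H2-Aa over H2-Ab1 fell with Tat by 0.51 on the log2 scale and rose by 0.17 from F/F Tat to ΔMye Tat, both at the smallest p (adjusted p = 0.00519 and 0.00649, exact permutation test). H2-Eb1 over H2-Ab1 also fell with Tat, by 0.71 (adjusted p = 0.00519, exact permutation test), and in ΔMye Tat differed from F/F Tat by 0.11 (adjusted p = 0.425). Cd74 over H2-Ab1 was the ratio that moved least, by -0.03 with Tat (adjusted p = 0.461, exact permutation test) and by -0.05 from F/F Tat to ΔMye Tat (adjusted p = 0.114), with mean ratios of 3.80 (F/F PBS), 3.72 (F/F Tat) and 3.58 (ΔMye Tat). The latter difference passed when F/F Tat library 12 was left out (-0.07, adjusted p = 0.0381, exact permutation test).

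H2-DMb1 over H2-DMa rose with Tat by 1.02 on the log2 scale (adjusted p = 0.00519, exact permutation test), and the mean ratio went from 0.814 to 1.67. In ΔMye Tat it was 1.32, lower than in F/F Tat by -0.32 (adjusted p = 0.0173, exact permutation test) with overlapping libraries. The ratio of the editor's chains in ΔMye Tat, at 1.19 to 1.42, stayed above the F/F PBS libraries, at 0.741 to 0.929. Ciita over H2-Ab1 fell with Tat by 1.14 and rose by 1.09 from F/F Tat to ΔMye Tat, without overlap (adjusted p = 0.00519 and 0.00649, exact permutation test). Its mean ratio came to 0.00695 without Tat, 0.00302 with Tat in F/F cells and 0.00693 with Tat in ΔMye cells, and the ΔMye Tat libraries (0.00539 to 0.00812) overlapped those of F/F PBS (0.00541 to 0.00757).

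**Figure D3:**
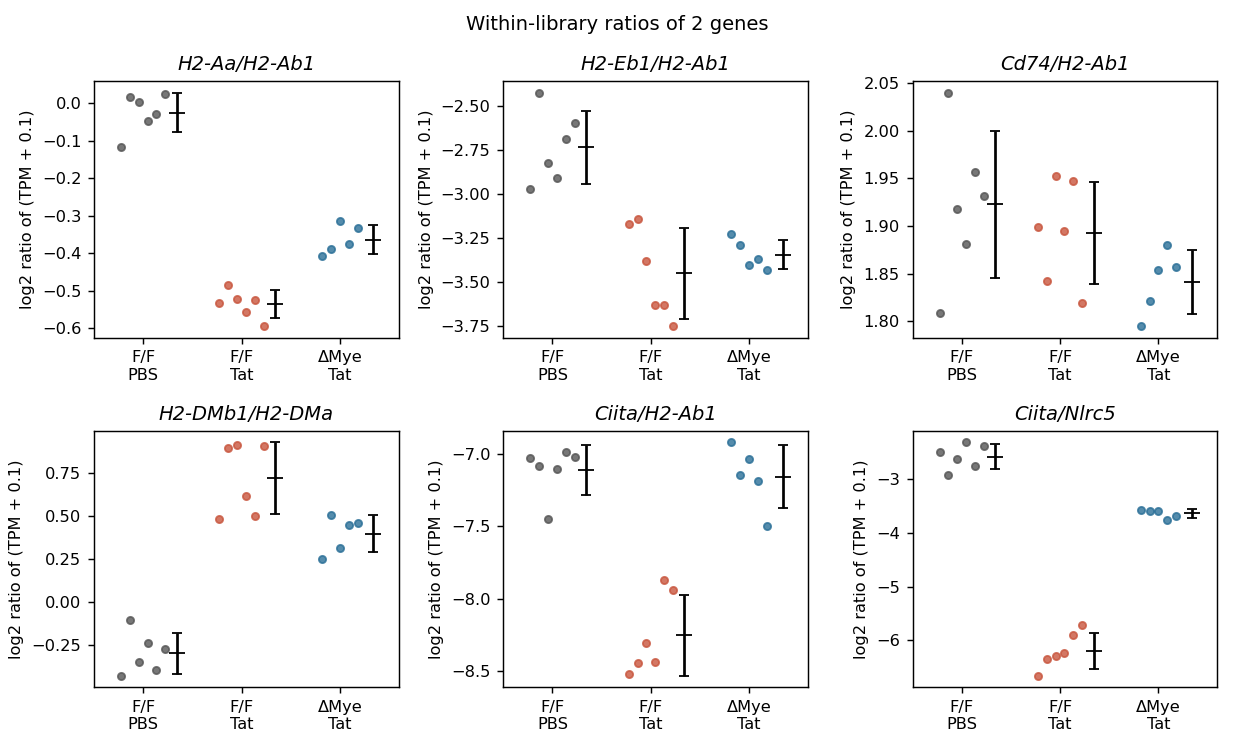
Log2 ratio of (TPM + 0.1) of 2 genes within a library (vertical axes, not from 0), 1 panel a pair, with a dot for each library and the mean ± SD of each group (n = 6, 6 and 5). Cd74/H2-Ab1 overlaps among the 3 groups, whereas Ciita/Nlrc5 separates them, at means of -2.59, -6.19 and -3.64.

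MHC class I presentation was set beside class II because its transactivator, NLRC5, is a relative of CIITA that acts on similar promoter boxes. Of 10 class I genes (H2-K1, H2-D1, H2-T23, B2m, Tap1, Tap2, Tapbp, Nlrc5, Psmb8 and Psmb9), 9 rose and 0 fell with Tat, beside 17% and 67.6% of all tested genes. After scaling 10 rose, beside 37.1%. The median log2 fold change of the class I genes with Tat was 1.25, beside -0.77 for the class II members. Between the genotypes under Tat 1 rose, H2-D1, by 0.11 as deposited although it differed by -0.10 after scaling, and 5 fell. The shares of all tested genes were 38.8% and 8.87%. After scaling 9 class I genes fell, beside 18.8%. Nlrc5 was 14.4 ± 2.40 TPM in F/F PBS (SD, n = 6), 76.7 ± 6.99 in F/F Tat (n = 6) and 66.8 ± 9.99 in ΔMye Tat (n = 5), so it rose with Tat by 2.41 and differed by -0.21 (adjusted p = 0.106) between genotypes, or by -0.42 after scaling, where it passed (adjusted p = 0.000577, limma). Ciita over Nlrc5 fell with Tat by 3.60 on the log2 scale and rose by 2.55 from F/F Tat to ΔMye Tat, without overlap (adjusted p = 0.00519 and 0.00649, exact permutation test).

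Among 12 genes of the interferon-γ pathway and factors known to act on Ciita, 8 rose and 2 fell with Tat as deposited, beside 17% and 67.6% of all tested genes. From F/F Tat to ΔMye Tat 7 rose and 1 fell, beside 38.8% and 8.87%. After scaling 3 rose and 3 fell in that comparison, beside 16.4% and 18.8%. Ifng, the cytokine that typically induces Ciita, was 0.169 to 1.52 TPM in F/F PBS, 50.7 to 60.0 in F/F Tat and 79.4 to 96.4 in ΔMye Tat. It rose with Tat by 6.06 on the log2 scale. The difference of 0.62 (SE 0.29) between ΔMye Tat and F/F Tat did not pass (adjusted p = 0.0733, limma), although their libraries did not overlap. That SE came from the joint fit of the 3 groups, so it included the spread of F/F PBS. The coefficient of variation of Ifng was 54.7% for F/F PBS, 6.96% for F/F Tat and 7.87% for ΔMye Tat. The missed threshold is therefore no sign of equal Ifng levels under Tat. No result for Ifng from a fit without F/F PBS is given here. Irf1 rose with Tat by 2.26 and by a further 0.35 in ΔMye Tat as deposited, but after scaling the latter difference was 0.14 and did not pass (adjusted p = 0.0268, limma).

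None of the genes of the same list described next moved as Ciita did in every comparison. Ifngr1, the ligand-binding chain of the interferon-γ receptor, was 69.2 ± 3.05 TPM in F/F PBS (SD, n = 6), 18.2 ± 0.454 in F/F Tat (n = 6) and 30.8 ± 1.05 in ΔMye Tat (n = 5), so that it fell with Tat by 1.92 and rose by 0.76 from F/F Tat to ΔMye Tat. Unlike Ciita, Ifngr1 in ΔMye Tat remained lower than in F/F PBS, with a log2 difference of -1.17 as deposited and -0.75 after scaling. Spi1, which encodes PU.1, a myeloid factor, fell with Tat by 0.42 as deposited but rose by 0.21 after scaling, and rose by 0.49 from F/F Tat to ΔMye Tat. From F/F PBS to ΔMye Tat, Spi1 differed by 0.07 as deposited and did not pass (adjusted p = 0.106, limma), but rose by 0.49 after scaling. Irf8, an interferon-inducible myeloid factor, was 71.6 to 83.8 TPM in F/F PBS, 135 to 159 in F/F Tat and 224 to 270 in ΔMye Tat, and it rose in both comparisons, by 0.93 and 0.77. Il10, a cytokine known to restrain class II at the macrophage surface, was 0.0599 to 0.939 TPM in F/F PBS, 10.8 to 13.7 in F/F Tat and 1.58 to 2.34 in ΔMye Tat. It was the gene of the list that fell in ΔMye Tat as deposited, by 2.59 (adjusted p = 2.34e-06, limma), after a rise by 4.40 with Tat. Whether any of these levels bears on Ciita was not tested.

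The 7 genes for factors that bind the class II promoters (Rfx5, Rfxank, Rfxap, Nfya, Nfyb, Nfyc and Creb1) were set beside Ciita. With Tat 5 fell and 0 rose as deposited, beside 67.6% and 17% of all tested genes. After scaling 1 fell and 2 rose, beside 38.1% and 37.1%. Between the genotypes under Tat 2 rose as deposited (Rfxank by 0.32 and Nfyb by 0.35), beside 38.8% of all tested genes. Rfxap differed by 0.51 and did not pass (adjusted p = 0.0348, limma), and Rfx5 differed by 0.23 with a 95% confidence interval of -0.66 to 1.11. After scaling the 7 differences ran from -0.07 (Nfya) to 0.30 (Rfxap, adjusted p = 0.229, the lowest of the 7, limma). Rfxank, a subunit of the RFX complex on the X box, was 9.08 ± 0.881 TPM in F/F PBS (SD, n = 6), 4.17 ± 0.243 in F/F Tat (n = 6) and 5.28 ± 0.780 in ΔMye Tat (n = 5).

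Of 9 genes for endosomal processing, 8 fell with Tat as deposited, beside 67.6% of all tested genes. After scaling 4 fell and 4 rose, beside 38.1% and 37.1%. In ΔMye Tat against F/F Tat 7 rose (3 after scaling), beside 38.8% of all tested genes (16.4% after scaling). The median log2 fold change of the processing genes was 0.31, beside 0.22 for all tested genes and 1.42 for the members. After scaling it was 0.09, beside 0.01 and 1.21. Ifi30, the thiol reductase GILT, which opens disulfide bonds of antigens, was 560 ± 19.5 TPM in F/F PBS (SD, n = 6), 140 ± 8.85 in F/F Tat (n = 6) and 187 ± 9.84 in ΔMye Tat (n = 5), so it fell with Tat and rose by 0.41 in ΔMye Tat. Ctss, the invariant chain protease cathepsin S, fell with Tat by 0.52 as deposited but differed by 0.12 after scaling, and rose by 0.27 from F/F Tat to ΔMye Tat as deposited but differed by 0.06 after scaling (adjusted p = 0.268, limma). The aspartic protease Ctsd fell by 1.81 and rose by 0.43. Cd83, whose product keeps class II at the surface by opposing its ubiquitination, rose with Tat by 1.65 and differed by 0.12 between genotypes (adjusted p = 0.245, limma), or by -0.10 after scaling.

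**Figure D4:**
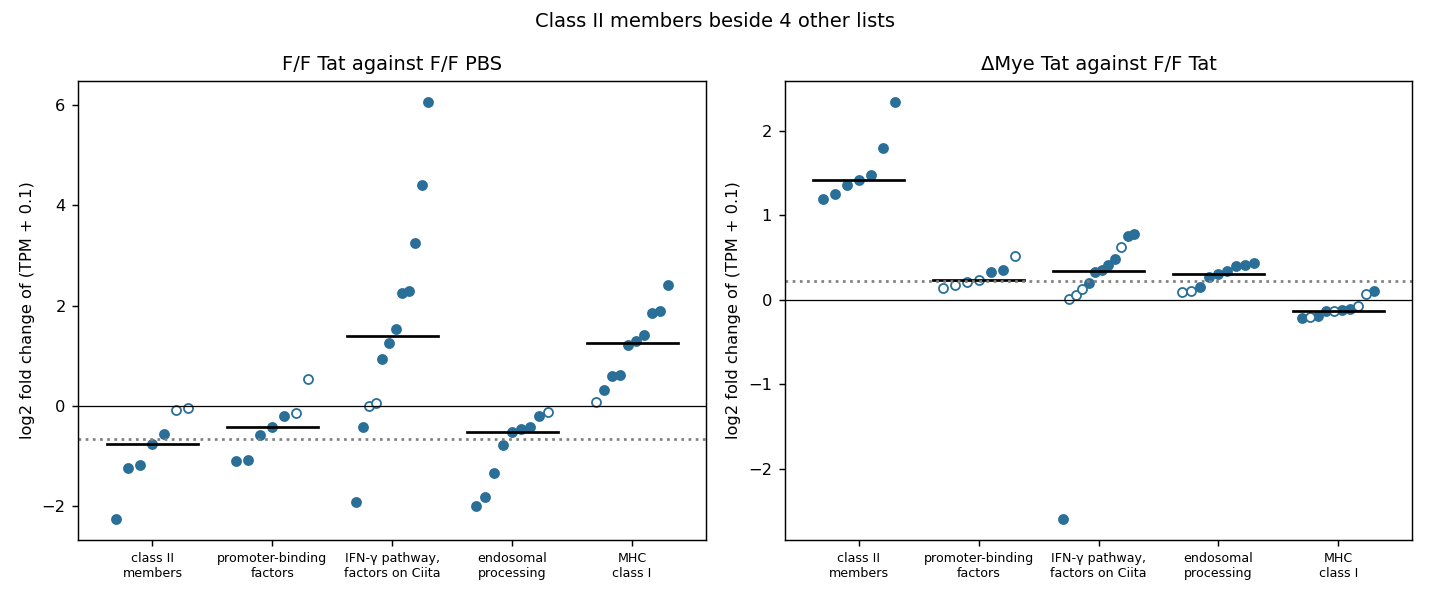
Log2 fold changes of (TPM + 0.1), as deposited, of the tested genes of 5 lists (horizontal axis) for Tat against PBS (left) and ΔMye Tat against F/F Tat (right); filled dots passed an adjusted p of 0.01, open dots did not, bars are list medians and the dotted line is the median of all tested genes. On the right the class II members lie at 1.19 to 2.34 and the medians of the other 4 lists between -0.13 and 0.34; on the left the sign of several genes, H2-Aa, H2-Ab1, Cd74, Spi1 and Ctss among them, changes after scaling.

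The other class II chain genes were near the floor of the tested range in all groups. H2-Oa and H2-Ob, chains of the H2-DM inhibitor H2-O, and H2-DMb2 were tested, H2-Eb2 had a row but was too low, and the 4 together summed to 4.90 to 10.97 TPM in F/F PBS, 3.47 to 5.74 in F/F Tat and 4.09 to 5.83 in ΔMye Tat. Between the genotypes under Tat 0 of 3 passed in limma, nor did any at an unadjusted p under 0.05, with log2 differences of -0.05 for H2-DMb2 (95% confidence interval -0.51 to 0.41), 0.24 for H2-Oa (-0.33 to 0.82) and 0.30 for H2-Ob (-0.37 to 0.97).

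Markers of other cells that carry class II were followed in the same libraries, and their part in the results was not tested. Of 11 B cell markers 10 had a row, and their TPM summed to 48.5 to 66.6 in F/F PBS, 25.1 to 29.6 in F/F Tat and 24.3 to 37.0 in ΔMye Tat. From F/F Tat to ΔMye Tat, 1 of 6 tested rose (Cd22, by 0.69), beside 38.8% of all tested genes. Cd79a, part of the B cell receptor, was 4.83 ± 0.465 TPM in F/F Tat (SD, n = 6) and 4.44 ± 0.555 in ΔMye Tat (n = 5). None of the other 5 tested B cell markers rose with the class II members.

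The 10 dendritic cell markers summed to 14.4 to 22.6 TPM in F/F PBS, 45.0 to 52.5 in F/F Tat and 29.0 to 36.3 in ΔMye Tat, and 3 were tested. Ccr7, a chemokine receptor that is not confined to dendritic cells, made up most of the sum in F/F Tat and ΔMye Tat, with means of 9.01, 42.3 and 23.4 TPM in the 3 groups. Batf3, a factor of conventional dendritic cells that is not confined to them, rose from F/F Tat to ΔMye Tat by 1.45, Ccr7 fell by 0.85 and Mgl2 by 1.39. The defining markers Flt3, Zbtb46, Xcr1, Clec9a and Cd209a had means under 1 TPM in all groups. No marker of the list was at 0 in all libraries of a group.

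Of 10 T cell, innate lymphoid and NK cell markers, 6 were tested. From F/F Tat to ΔMye Tat 4 rose as deposited, beside 38.8% of all tested genes, and 0 fell in limma, beside 8.87%. After scaling 4 rose and 1 fell (Il7r, -0.18), beside 16.4% and 18.8%. Cd3e, part of the T cell receptor complex, was 1.46 ± 0.625 TPM in F/F PBS (SD, n = 6), 0.724 ± 0.117 in F/F Tat (n = 6) and 1.79 ± 0.295 in ΔMye Tat (n = 5), and Cd3d, Cd3g and Thy1 rose too, by 1.35, 1.86 and 1.08. The summed list, mostly Il7r, was 156 to 178, 147 to 162 and 157 to 171 TPM in F/F PBS, F/F Tat and ΔMye Tat. These T cell genes rose beside the class II members from F/F Tat to ΔMye Tat, at a few TPM or less. From F/F PBS to ΔMye Tat, Cd3d, Cd3e and Cd3g did not pass as deposited (adjusted p = 0.246, 0.153 and 0.214, limma), whereas Thy1 rose by 0.78. After scaling Cd3e passed as well in that comparison, and Cd3d and Cd3g did not. The 5 mesothelial markers summed to 4.75 TPM or less in every library.

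Within ΔMye Tat, libraries 19 and 20 were first or second for 6 of 7 members each, and library 23 was the lowest for 4, among them Ciita, at 3.88 against 4.91 to 6.58 TPM. The spread among the ΔMye Tat libraries was small beside the distance to F/F Tat: the coefficient of variation was 4.08% (H2-Aa) to 18.7% (Ciita). Leaving out any 1 library kept the 7 members higher in ΔMye Tat than in F/F Tat, with log2 fold changes from 1.18 (Cd74) to 2.44 (Ciita).

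The genes whose log2 level across the 17 libraries was most like H2-Ab1 were Tmem178, Mat2a, Cmklr1, Polr2g and Tnfaip8, with Pearson's r of 0.981 down to 0.967. Tmem178 had means of 2.55, 2.34 and 12.8 TPM in F/F PBS, F/F Tat and ΔMye Tat, and Cmklr1, a chemerin receptor of macrophages, had 42.2, 44.3 and 97.6 TPM. For Ciita they were Pbxip1, Lox, Dpep2, Ptpn6 and Cop1, with r of 0.983 down to 0.967, and Pbxip1 had means of 27.4, 17.7 and 45.9 TPM. These likenesses rest on 3 groups of libraries, so they describe a shared order of the group means.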

How the data were processed

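RNA-Seq was analysed in 17 PM libraries: F/F PBS (n = 6), F/F Tat (n = 6) and ΔMye Tat (n = 5), grouped by the sample labels. The authors ran Salmon on the reads with the Ensembl mouse annotation (mm10 in the submitters' processing notes, versions not given in the sources used here) and deposited TPM values by gene symbol, with no stated normalization between libraries. The listed TPM sum to 889318 to 903576 per library, so some features are not in the table. TPM keep no read counts, so depth and counting error are unknown, and the test in edgeR named in the methods was not repeated on them.

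From these values, the 10451 genes that reached 1 TPM in 5 or more libraries were put on the log2(TPM + 0.1) scale. They were fitted in a joint model of the 3 groups (14 residual degrees of freedom) by lmFit of limma (version 3.58.1, under R version 4.3.3), followed by eBayes with an intensity trend. A fold change on this scale understates the change of low genes such as Ciita. Calls used a Benjamini-Hochberg adjusted p under 0.01 over all tested genes, with and without a fold change over 3. Within-library ratios were tested between groups by exact permutation, two-sided (threshold 0.05 after adjustment). Median-ratio scaling used genes above 0 in all libraries. The fit was tested on simulated data. Other steps ran in Python 3.11.15 with scipy 1.17.1, pandas 2.3.3, numpy 2.4.6 and, for plots, matplotlib 3.10.9.

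The rule for named genes was all 7 members, any described gene of the lists set beside them, and the 5 genes with the highest Pearson's r to H2-Ab1 and to Ciita. The members and all lists were chosen with earlier results of these data known. The alternatives tried were 2 other pseudocounts (0.5 and 1), testing without a filter or with one of 5 TPM, median-ratio scaling, quantile normalization, array weights with robust eBayes, separate fits for each pair of groups, dropping the fold threshold, and leaving out each library. Start sites and promoter sequences came from RefSeq, and the shares of 31-base sequences from GENCODE M21 transcripts. H2-Ea, H2-Ea-ps and Ighm had no row under these symbols, and March1 and March8, which regulate class II turnover, could not be matched because such symbols were turned into dates in the table. An allele that the mice of all 3 groups share and some genes of the lists are not reported here.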

Additional observations from a re-analysis of the deposited data

Results flagged for a closer look

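Of 39 sets of library values tested for a library far from the rest of its group (the 7 members and 6 ratios in 3 groups), 2 had such a library, and chance alone marks about 1 in 20. H2-Ab1 in F/F PBS library 2 was 298 TPM, and its gap to the next library was 0.647 of the range of the group. The log2 ratio of Ciita to H2-Ab1 in F/F PBS library 3 was -7.45, with a gap of 0.754 of the range. Leaving out any library kept the ratio of Ciita to H2-Ab1 lower with Tat in F/F cells, at -1.21 to -1.08 on the log2 scale.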

How the results depend on the processing

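No paired analysis was possible because the library numbers do not repeat between the groups, so no replicate block could be fitted. With no fold threshold the number of members called was 5 lower for Tat against PBS in F/F cells, 7 higher in ΔMye Tat against F/F Tat, and 6 higher and 1 lower for ΔMye Tat against F/F PBS. With the fold threshold, the filter of 5 TPM (which leaves Ciita untested) and quantile normalization each left 1 member higher in ΔMye Tat than in F/F Tat instead of 2, and median-ratio scaling and quantile normalization each called 1 higher against F/F PBS instead of 0. For Tat against PBS, median-ratio scaling turned the log2 differences of H2-Aa to 0.0701, H2-Ab1 to 0.58 and Cd74 to 0.55, since it removes the shift in the median of all genes. Quantile normalization gave -0.12 for Ciita (adjusted p = 0.442, limma), and -0.30 for H2-Ab1 and -0.25 for Cd74, which then passed as lower; the cause was not tested. The ratio of Cd74 to H2-Ab1, ΔMye Tat against F/F Tat, ran from -0.0659 to -0.0391 with single libraries left out and passed without F/F Tat library 12. Of 357 log2 fold changes of members with a library left out, 356 kept their direction and side of the threshold, as did 157 of 165 under other settings. In ΔMye Tat against F/F Tat, the 7 members stayed higher and past the adjusted p in every setting in which they were tested. TPM give no depth, so the precision of low genes such as Ciita rests on the spread between libraries alone.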
